A study of Homo sapiens with 18 samples.

Results

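This account is about 8 homeobox genes that are known to depend on the histone methyltransferase DOT1L in leukaemia: HOXA2, HOXA9, HOXA10, HOXA11, MEIS1, MEIS2, MEIS3 and PBX3. They were chosen by symbol, each matched to its Ensembl gene, and make up 8 of the 63677 genes in the count table. Poly(A)-selected RNA of WM989, an established human melanoma line, went into 18 libraries that form 6 groups of 3. Cells had been kept for 7 days with 4 µM EPZ5676, an inhibitor of DOT1L, or with the solvent DMSO. From each treatment came unsorted bulk cells and cells of an NGFR and EGFR high and an NGFR and EGFR low population. The groups are EPZ5676 bulk, DMSO bulk, EPZ5676 high, DMSO high, EPZ5676 low and DMSO low. All 18 libraries came from the same line, and nothing in the labels says that replicates were separate cultures, so p-values measure only the spread between these samples.

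DOT1L adds methyl groups to a lysine in the core of histone H3 over the bodies of transcribed genes. In leukaemias with a rearranged MLL gene, the MLL fusion protein draws DOT1L to the HOXA cluster and to MEIS1, and inhibitors of DOT1L lower the RNA of these genes there. HOX proteins bind DNA together with MEIS and PBX proteins, homeodomain factors of the TALE class. HOX genes are switched on by position along the body axis, and cells of the neural crest, the source of melanocytes, carry part of that code.

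The libraries held 13383741 to 26311674 counts on genes. In 6 of them reads outside annotated features made up 18.88% to 28.65%, and in the other 12 they made up 12.8% to 15.17%. The 6 were EPZ5676 bulk replicates 1 and 3, EPZ5676 high replicates 1 and 2, EPZ5676 low replicate 1 and DMSO high replicate 3. DMSO bulk replicate 1 stood apart in another way: its 7 melanocyte markers summed to 4811 counts scaled to library size (CPM, a level per fixed number of reads), against 10060 and 10320 CPM in the other DMSO bulk libraries, and its 7 fibroblast markers to 430 CPM against 90 and 90.2 CPM. The fibroblast sum follows COL1A1, at 289.5 CPM in DMSO bulk replicate 1 against 12.9 and 17.3 CPM in the other DMSO bulk libraries. Of the 7 fibroblast markers only LUM was lower there, at 46.7 against 68.9 and 62.2 CPM. The genes of the sort stood apart in DMSO bulk replicate 1 too. NGFR was at 220.3 CPM there against 12.6 and 9.24 CPM in the other DMSO bulk libraries, and EGFR at 28.9 against 9.48 and 9.62 CPM. Results that rest on DMSO bulk replicate 1 or on the 6 libraries are given with and without them. All of the 6 but DMSO high replicate 3 are EPZ5676 libraries, so the share of such reads is confounded in part with treatment. Leaving out the 6 removes mostly treated libraries. NGFR, a gene of the sort, averaged 727 ± 70.6 CPM in EPZ5676 high, 572 ± 40.8 in DMSO high, 3.85 ± 2.91 in EPZ5676 low and 1.00 ± 0.527 CPM in DMSO low cells (SD, n = 3 each). Melanocyte markers were present in every library, with sums of 1120 CPM or more. The 7 leukocyte markers summed to 16.7 CPM or less in every library.

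The MEIS3, PBX3 and HOXA2 promoters are printed because among the 8 genes these show the largest log2 differences described below. Each window holds the 250 bases before a RefSeq transcription start on GRCh38.p14, written in the direction of the gene. All 8 genes matched, with 11 windows. They were searched on both strands for TGACAG, the core bound by MEIS proteins, TGATTNAT, bound by PBX with HOX, and TGANTCA, bound by AP-1. Capitals mark matches. Among 35116 windows of all genes, 13% held TGACAG, 2.48% held TGATTNAT and 6.57% held TGANTCA.
MEIS3, chr19:47422234-47422483, minus strand: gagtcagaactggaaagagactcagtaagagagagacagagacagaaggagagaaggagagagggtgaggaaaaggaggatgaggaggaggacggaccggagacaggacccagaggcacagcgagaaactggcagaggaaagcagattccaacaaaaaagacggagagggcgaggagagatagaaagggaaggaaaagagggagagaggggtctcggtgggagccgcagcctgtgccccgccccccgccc
MEIS3, chr19:47419528-47419777, minus strand: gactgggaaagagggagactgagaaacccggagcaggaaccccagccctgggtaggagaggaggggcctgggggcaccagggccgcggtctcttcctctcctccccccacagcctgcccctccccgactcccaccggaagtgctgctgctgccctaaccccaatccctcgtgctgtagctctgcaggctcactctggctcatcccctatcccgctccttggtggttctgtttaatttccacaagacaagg
PBX3, chr9:125747933-125748182, plus strand: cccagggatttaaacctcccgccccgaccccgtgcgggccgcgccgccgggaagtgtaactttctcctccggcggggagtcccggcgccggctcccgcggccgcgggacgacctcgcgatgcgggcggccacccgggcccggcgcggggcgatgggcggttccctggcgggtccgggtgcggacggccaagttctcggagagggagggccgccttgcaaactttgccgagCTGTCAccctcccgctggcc
HOXA2, chr7:27102684-27102933, minus strand: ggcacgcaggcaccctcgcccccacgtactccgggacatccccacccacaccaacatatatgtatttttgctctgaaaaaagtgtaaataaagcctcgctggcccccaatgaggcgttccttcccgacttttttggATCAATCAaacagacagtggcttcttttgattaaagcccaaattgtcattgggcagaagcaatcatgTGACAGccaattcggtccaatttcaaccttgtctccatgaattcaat
Neither MEIS3 window held any of these letters. The PBX3 window held 1 TGACAG, on the other strand, and the HOXA2 window held 1 TGACAG and 1 TGATTNAT, the second on the other strand. Among the other windows, a window of MEIS2 held 1 TGATTNAT and the rest held no match. GC content was 75.6% with 36 CpG dinucleotides in the PBX3 window, 47.2% with 8 CpG in the HOXA2 window and 57.6% and 63.2% with 9 and 7 CpG in the MEIS3 windows, against medians of 58% and 11 over all windows.

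HOXA9 and HOXA10, the HOXA genes most closely tied to leukaemia, were barely expressed, the term used here for a mean under 1 CPM in each of the 6 groups. HOXA9 (ENSG00000078399, chromosome 7) had 0 counts in all 18 libraries. A library could have missed up to 3 counts, which is 0.114 to 0.224 CPM depending on its depth, an allowance for counting error only. HOXA10 (ENSG00000253293, chromosome 7) had 8 counts in all, with group means between 0 and 0.0411 CPM. Neither gene passed the filter on low counts, and no change of either with EPZ5676 was detectable at this depth. In GENCODE 29, 27% of the exonic bases of HOXA9 and 26.3% of those of HOXA10 are shared with other genes, where a counter can set reads aside. The genes that share them, HOXA10-AS and an unnamed read-through gene, had 3 counts each.

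HOXA2 and HOXA11 stood near 1 CPM. HOXA2 (ENSG00000105996), which patterns the hindbrain and the neural crest of the face, had 368 counts over the 18 libraries. Its levels were 1.55, 1.34 and 1.12 CPM in EPZ5676 bulk and 1.16, 1.16 and 1.45 CPM in DMSO bulk cells. They were 0.643, 0.726 and 1.24 CPM in EPZ5676 high and 0.911, 0.771 and 0.970 CPM in DMSO high cells. They were 1.05, 1.35 and 1.91 CPM in EPZ5676 low and 0.786, 0.854 and 0.225 CPM in DMSO low cells. In low cells every EPZ5676 library was above every DMSO library, while the bulk and the high groups overlapped. HOXA11 (ENSG00000005073), a gene of limb, kidney and uterus development, had 378 counts. Its group means ran from 0.907 ± 0.313 CPM in DMSO high to 1.36 ± 0.0336 CPM in DMSO low cells (SD, n = 3 each), and each group in that order overlapped the next. Of its exonic bases, 31.1% are shared with HOXA11-AS on the other strand, which had 506 counts, and whether the counting used strand is not given in the sources used here.

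The MEIS genes, whose proteins are partners of HOX and PBX, and PBX3 were all expressed. MEIS1 (ENSG00000143995, chromosome 2), the best known DOT1L-dependent partner of HOXA9 in leukaemia, varied within a narrow range. It stood at 10.4, 9.20 and 10.4 CPM in EPZ5676 bulk and 11.9, 10.8 and 10.2 CPM in DMSO bulk cells. It stood at 10.8, 10 and 10.5 CPM in EPZ5676 high and 9.60, 10 and 10.4 CPM in DMSO high cells, and at 9.04, 9.48 and 8.39 CPM in EPZ5676 low and 9.87, 9.74 and 9.30 CPM in DMSO low cells. The 6 group means lay between 8.97 and 11 CPM, and each overlapped the next in that order. MEIS2 (ENSG00000134138, chromosome 15), which takes part in neural crest development, stood at 26.3, 24.0 and 22.5 CPM in EPZ5676 bulk and 23.9, 27.0 and 29.3 CPM in DMSO bulk cells. It stood at 24.7, 23.8 and 23.2 CPM in EPZ5676 high and 30.5, 27.8 and 29.6 CPM in DMSO high cells. In low cells it was 26.8, 29.7 and 30.2 CPM under EPZ5676 and 30.6, 33.0 and 35.0 CPM under DMSO. EPZ5676 libraries lay below all DMSO libraries in the high and in the low cells, and the bulk groups overlapped.

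MEIS3 (ENSG00000105419, chromosome 19), known in frog and zebrafish embryos for patterning the hindbrain, varied most. It stood at 14.2, 12.3 and 13.3 CPM in EPZ5676 bulk and 24.7, 9.16 and 10.7 CPM in DMSO bulk cells, where the highest value is that of replicate 1. It stood at 39.1, 36.9 and 41.1 CPM in EPZ5676 high and 49.8, 54.8 and 54.4 CPM in DMSO high cells. In low cells it was 8.34, 12.1 and 11.9 CPM under EPZ5676 and 8.11, 7.53 and 8.05 CPM under DMSO. The order was DMSO high, EPZ5676 high, DMSO bulk, EPZ5676 bulk, EPZ5676 low and DMSO low, and the bulk groups were the only neighbours that overlapped. Without DMSO bulk replicate 1, DMSO bulk averaged 9.93 CPM (9.16 and 10.7), below EPZ5676 bulk and EPZ5676 low and overlapping EPZ5676 low. Its processed pseudogenes MEIS3P1 and MEIS3P2 were counted separately, with 315 and 169 counts against 7619 for MEIS3, and reads could be split among the copies.

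PBX3 (ENSG00000167081, chromosome 9), a partner that steadies HOX and MEIS proteins on DNA, stood at 15.3, 12.6 and 11.2 CPM in EPZ5676 bulk and 16.7, 12.3 and 10.9 CPM in DMSO bulk cells. It stood at 24.6, 24.2 and 23.1 CPM in EPZ5676 high and 21.4, 18.7 and 20.0 CPM in DMSO high cells. In low cells it was 12.3, 12.1 and 13.0 CPM under EPZ5676 and 10.8, 10.5 and 12.9 CPM under DMSO. Both high groups lay above all other libraries, EPZ5676 high above DMSO high, and each of the other 4 groups overlapped the next. Per kilobase of exon, the mean CPM over all libraries was highest for MEIS3 at 4.52, then 3.46 for PBX3, 2.56 for MEIS2, 0.915 for MEIS1, 0.478 for HOXA11 and 0.435 for HOXA2, with 0.00546 for HOXA10 and 0 for HOXA9. That order is set by the high cells, where MEIS3 stood at 7.62 under EPZ5676 and 10.3 under DMSO. In low cells MEIS3, at 2.10 under EPZ5676 and 1.54 under DMSO, lay below both PBX3 (2.75 and 2.52) and MEIS2 (2.68 and 3.05). In bulk cells MEIS3, at 2.59 under EPZ5676 and 2.90 under DMSO, lay below PBX3 (2.88 and 2.93). Without DMSO bulk replicate 1 the DMSO bulk values were 1.94 for MEIS3, 2.56 for PBX3 and 2.61 for MEIS2.

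**Figure D1:**
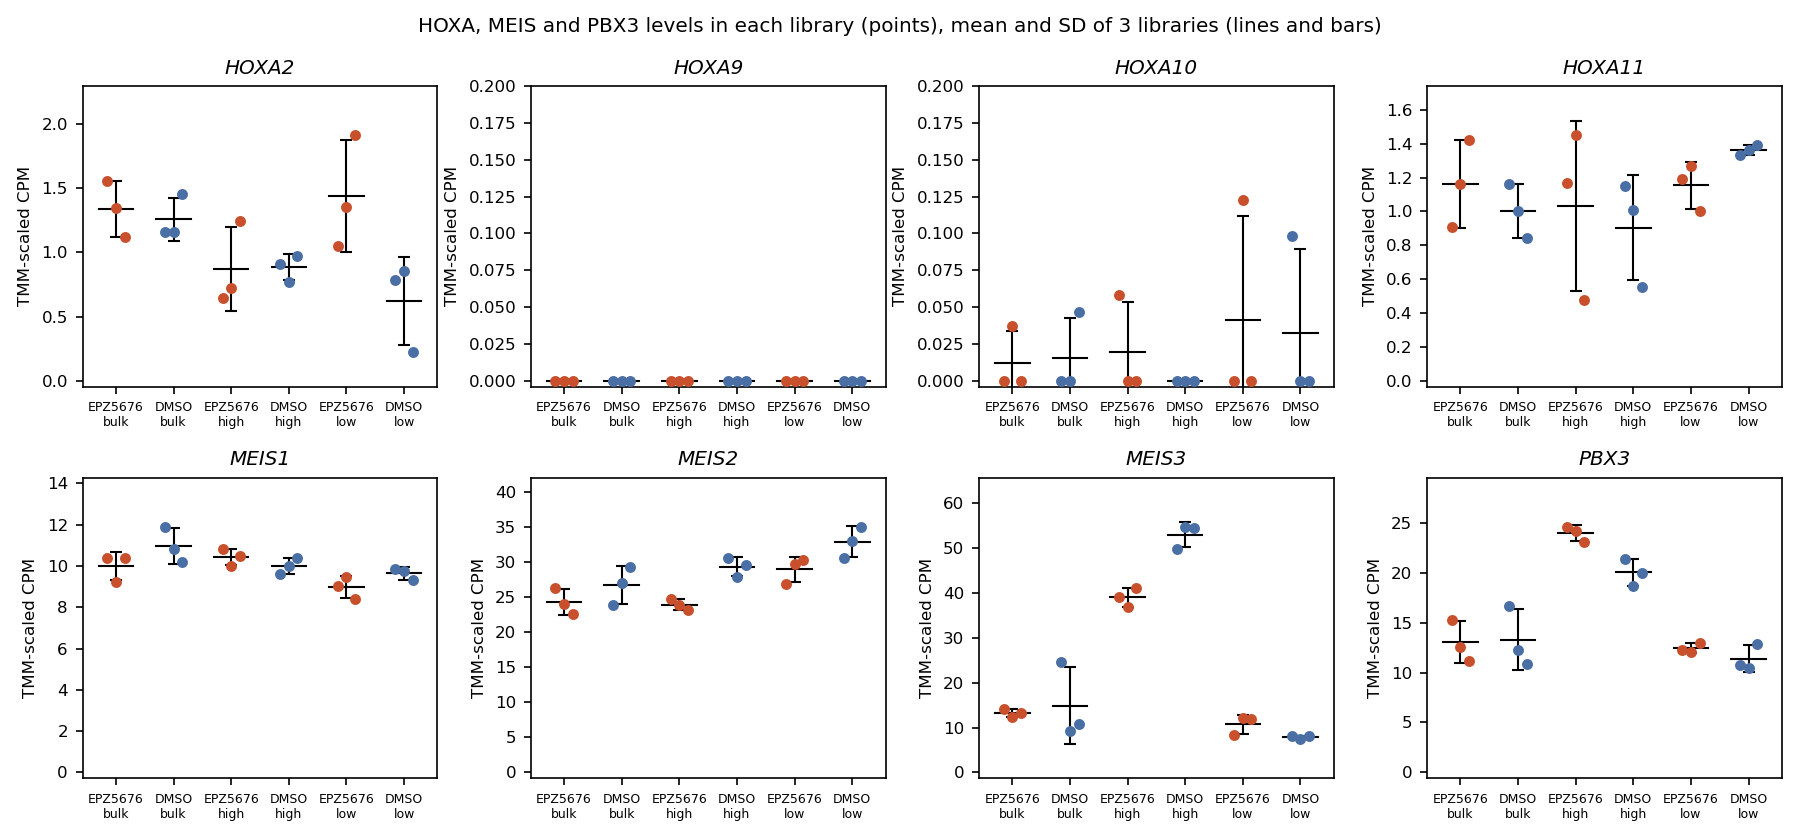
Normalised level of each gene (TMM-scaled CPM, vertical axis from 0, a different scale for each gene) in the 3 libraries of each group, EPZ5676 in orange and DMSO in blue, with the mean as a line and the SD as bars. MEIS3 and PBX3 stand highest in the high groups, MEIS1 lies at 8.97 to 11 CPM, and HOXA9 is at 0 in all 18 libraries.

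The comparison of EPZ5676 with DMSO asks whether the RNA of these genes changed under this DOT1L inhibitor in WM989 cells. Dependence on DOT1L itself was not tested. Averaged over bulk, high and low cells, MEIS2 was lower with EPZ5676 and no other of the 6 genes tested was called. MEIS2 changed by -0.21 ± 0.05 on the log2 scale (95% interval -0.31 to -0.10, adjusted p = 0.0123), a 1.15-fold decrease. In bulk RNA, fewer cells of a kind and less RNA per cell cannot be told apart. In this comparison 8.26% of the 18121 genes tested were called, 4.47% higher and 3.79% lower. MEIS1 was at -0.06 ± 0.06 (interval -0.18 to 0.06, adjusted p = 0.612), so a fall of more than 0.18 lies outside its interval. HOXA2 was at 0.45 ± 0.22 (interval -0.01 to 0.90), PBX3 at 0.12 ± 0.08 (-0.04 to 0.28), MEIS3 at -0.04 ± 0.16 and HOXA11 at 0.04 ± 0.20. All adjusted p-values are Benjamini-Hochberg values of the quasi-likelihood test in edgeR. Without the 6 libraries with many reads on no feature the MEIS2 call was lost at about the same size (-0.20 ± 0.08, adjusted p = 0.329). That setting leaves EPZ5676 bulk replicate 2 and EPZ5676 high replicate 3 alone in their groups, where they are assumed to vary like the other groups. With the share of such reads as a covariate MEIS2 was at -0.19 ± 0.06 (adjusted p = 0.0657). Without DMSO bulk replicate 1, PBX3 passed at 0.19 ± 0.06 (adjusted p = 0.0453) and MEIS3 was at 0.14 ± 0.06. That fit called 1401 of all genes higher and 1130 lower, against 810 and 687 with all 18 libraries.

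In bulk cells none of the 6 genes was called, where 0.728% of all tested genes were, 0.497% higher and 0.232% lower. Before adjustment 0 of the 6 had p under 0.05 in edgeR, and DESeq2 and limma-voom called 0. The log2 differences were -0.14 ± 0.10 for MEIS1, -0.14 ± 0.09 for MEIS2, -0.15 ± 0.28 for MEIS3, -0.02 ± 0.14 for PBX3, 0.09 ± 0.36 for HOXA2 and 0.21 ± 0.35 for HOXA11. No gene of the 6 was free of overlap between EPZ5676 bulk and DMSO bulk libraries, against 8.21% of tested genes without overlap above and 7.64% below. The MEIS3 value turned to 0.40 ± 0.12 (adjusted p = 0.0653) without DMSO bulk replicate 1, whose MEIS3 level of 24.7 CPM lay between those of high and low cells, and the PBX3 value to 0.17 ± 0.12.

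In high cells none of the 6 was called either, against 3% of all tested genes, 1.95% higher and 1.04% lower. Before adjustment 1 of the 6, MEIS2, had p under 0.05 in edgeR, and DESeq2 called 1 and limma-voom 0. MEIS2 was at -0.29 ± 0.09 (interval -0.48 to -0.11, adjusted p = 0.0713), MEIS3 at -0.44 ± 0.25 (interval -0.99 to 0.11, adjusted p = 0.432) and PBX3 at 0.26 ± 0.13 (interval -0.01 to 0.53, adjusted p = 0.319). For these 3 genes the EPZ5676 and DMSO libraries did not overlap, PBX3 above and the other two below, as for 12.7% of all tested genes above and 12.1% below. MEIS1 was at 0.06 ± 0.10, HOXA2 at 0.01 ± 0.39 and HOXA11 at 0.15 ± 0.36. The SE shares a spread over all 18 libraries, DMSO bulk replicate 1 among them. Without that library MEIS3 passed at -0.44 ± 0.09 (adjusted p = 0.00099), as did MEIS2 at -0.29 ± 0.08 (adjusted p = 0.0142). That fit called 1099 of all genes higher and 919 lower, against 354 and 189 with all 18 libraries. Over the alternatives tried, adjusted p ran from 0.000547 to 0.968 for MEIS3 and from 0.0142 to 0.81 for MEIS2. HOXA11 turned to -1.15 ± 0.48 (adjusted p = 0.778) without the 6 libraries with many reads on no feature, which leaves only the 0.479 CPM of EPZ5676 high replicate 3, and likewise to -0.39 ± 0.23 in the averaged comparison.

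In low cells 0 of the 6 genes and 1.04% of all tested genes were called, 0.712% higher and 0.326% lower. Before adjustment 2 had p under 0.05 in edgeR, HOXA2 and MEIS2, and DESeq2 and limma-voom called 0. HOXA2 was at 1.24 ± 0.38 (interval 0.45 to 2.02, adjusted p = 0.141) and MEIS3 at 0.46 ± 0.29 (interval -0.16 to 1.09, adjusted p = 0.575). MEIS2 was at -0.18 ± 0.09, MEIS1 at -0.10 ± 0.10, PBX3 at 0.13 ± 0.14 and HOXA11 at -0.23 ± 0.33. HOXA2 and MEIS3 lay above all DMSO low libraries, as 11.6% of tested genes did, and MEIS2 and HOXA11 below them, as 11.5% did. Without DMSO bulk replicate 1, MEIS3 passed at 0.47 ± 0.11 (adjusted p = 0.00896) and HOXA2 at 1.24 ± 0.38 (adjusted p = 0.0474). That fit called 566 of all genes higher and 402 lower, against 129 and 59 with all 18 libraries. Over the alternatives adjusted p ran from 0.00356 to 0.872 for MEIS3 and from 0.0474 to 0.479 for HOXA2.

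MEIS3 thus stood below its DMSO libraries in high cells and above them in low cells, as 1.23% of all tested genes did without overlap. A further 1.33% did the opposite, which makes 2.56% in either direction. The test of that difference, the interaction of treatment and sort, gave -0.90 ± 0.38 for MEIS3 (interval -1.73 to -0.07, unadjusted p = 0.0352, adjusted p = 0.405), and 0.32% of tested genes were called, 0.204% higher and 0.116% lower. The interaction was -1.23 ± 0.55 for HOXA2 (adjusted p = 0.405) and between -0.11 and 0.38 for the other 4, none of them called (HOXA11 turned to -0.90 ± 0.56 without the 6 libraries). Before adjustment 2 of the 6, HOXA2 and MEIS3, had p under 0.05 in edgeR, and DESeq2 and limma-voom called 0. With all 18 libraries the interaction called 37 of all genes higher and 21 lower. Without DMSO bulk replicate 1 it called 581 and 491, and with only the 4 sorted groups in the fit 432 and 431. In these 2 settings the MEIS3 interaction passed, at -0.91 ± 0.14 without DMSO bulk replicate 1 (adjusted p = 7.87e-05) and at -0.91 ± 0.14 with only the 4 sorted groups (adjusted p = 0.00022). Without the 6 libraries with many reads on no feature it was -0.94 ± 0.63 (adjusted p = 0.997), and without those 6 and DMSO bulk replicate 1 it was -0.95 ± 0.17 (adjusted p = 0.00379). The sums of the melanocyte markers were 1712 to 1877 CPM in EPZ5676 high against 1120 to 1331 CPM in DMSO high cells, and those of the fibroblast markers 602.9 to 742.9 against 1076 to 1411 CPM. The fibroblast sum follows COL1A1, which averaged 433.2 CPM in EPZ5676 high and 930.2 CPM in DMSO high cells, while LUM (52.7 and 31.7 CPM), DCN (21.8 and 15.3 CPM) and COL3A1 (1.75 and 0.788 CPM) had the higher mean under EPZ5676. In low cells the melanocyte markers summed to 13900 to 14080 CPM under EPZ5676 against 11130 to 11600 CPM under DMSO, and the fibroblast markers to 97.6 to 100.3 against 72.3 to 75.5 CPM. These sums follow PMEL (10440 CPM in EPZ5676 low and 8147 CPM in DMSO low cells), DCT (1538 and 1053 CPM) and, among the fibroblast markers, LUM (89.2 and 67.8 CPM), while MLANA (382.9 and 567.5 CPM) and MITF (575.1 and 595.9 CPM) had the lower mean under EPZ5676. Of these 14 markers edgeR called DCT and LUM in high cells, both higher, and none in low cells. DCT lost its call without DMSO high replicate 2 or 3 (adjusted p up to 0.056). Both lost it without the 6 libraries with many reads on no feature, with log2 differences of 1.47 for DCT and 0.86 for LUM. The part of the 14 markers in the MEIS3 values was not tested.

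**Figure D2:**
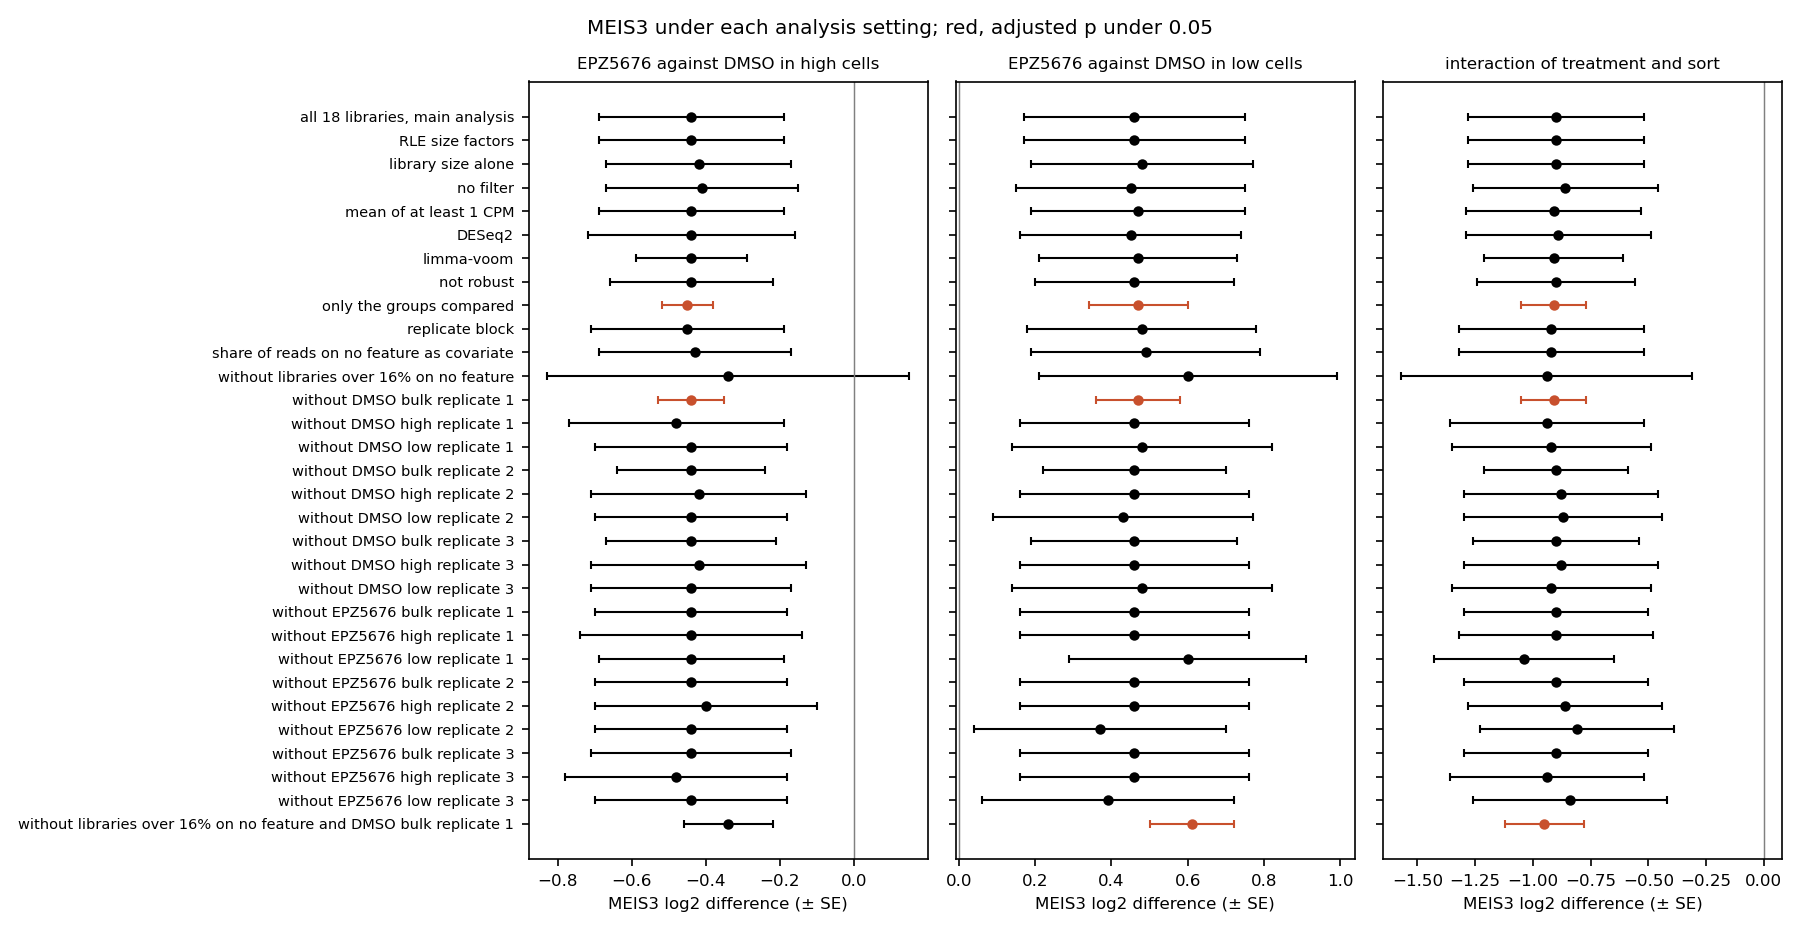
Log2 difference of MEIS3 (horizontal axis, point and SE) for EPZ5676 against DMSO in high cells, in low cells and for the interaction, under every analysis setting tried, red where the adjusted p was under 0.05. The interaction lay between -1.04 and -0.81 in all of them, and its SE of 0.38 fell to 0.14 once DMSO bulk replicate 1 was left out of the spread.

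The comparison of high with low cells asks which of these genes mark the NGFR and EGFR high state. MEIS3 and PBX3 were higher in high cells under both treatments. Under DMSO, MEIS3 averaged 53.0 ± 2.76 CPM in high and 7.89 ± 0.315 CPM in low cells (SD, n = 3 each), a log2 difference of 2.75 ± 0.28 or 6.71-fold (adjusted p = 1.89e-06). PBX3 averaged 20.0 ± 1.36 CPM in high and 11.4 ± 1.26 CPM in low cells, 0.81 ± 0.13 or 1.75-fold (adjusted p = 2.21e-05). This comparison called 56.3% of all tested genes, 29.6% higher and 26.7% lower, beside which 2 of 6 higher is near the background. Libraries did not overlap for MEIS3 and PBX3, higher, and for MEIS2 and HOXA11, lower, as for 31.6% of tested genes above and 28.7% below. MEIS1 was at 0.05 ± 0.10 (interval -0.16 to 0.27), MEIS2 at -0.17 ± 0.09, HOXA2 at 0.51 ± 0.41 and HOXA11 at -0.56 ± 0.35, none of them called.

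Under EPZ5676, MEIS3 averaged 39.0 ± 2.08 CPM in high and 10.8 ± 2.11 CPM in low cells (SD, n = 3 each), 1.84 ± 0.27 or 3.58-fold (adjusted p = 7.92e-05). PBX3 averaged 24.0 ± 0.754 CPM in high and 12.5 ± 0.48 CPM in low cells, 0.94 ± 0.13 or 1.92-fold (adjusted p = 5.11e-06). MEIS2 was lower in high cells, at 23.9 ± 0.733 CPM against 28.9 ± 1.81 CPM in low cells (-0.28 ± 0.09, adjusted p = 0.0108). Of all tested genes 48.9% were called, 25.8% higher and 23.1% lower. Libraries did not overlap for MEIS1, MEIS3 and PBX3, higher, and for MEIS2, lower, as for 31.5% of tested genes above and 28.8% below. MEIS1 was at 0.22 ± 0.10 (adjusted p = 0.0864), HOXA2 at -0.72 ± 0.37 and HOXA11 at -0.18 ± 0.35 (-1.25 ± 0.47, adjusted p = 0.0721, without the 6 libraries with many reads on no feature). MEIS3 and PBX3 kept both calls in each of 30 alternatives, while MEIS2 lost its call without the 6 libraries with many reads on no feature (-0.38 ± 0.15, adjusted p = 0.0806). HOXA2 passed without EPZ5676 high replicate 3 (-1.08 ± 0.42, adjusted p = 0.0436). The comparisons under one treatment share their sorted libraries with the comparisons of treatments above, so the values are not independent. All 7 melanocyte markers were lower in high cells under both treatments, and 6 of the 7 fibroblast markers were higher, while LUM was lower (-1.09 ± 0.14 under DMSO and -0.76 ± 0.13 under EPZ5676). The leukocyte markers summed to 15.3 to 16.3 CPM in EPZ5676 high against 1.27 to 1.76 CPM in EPZ5676 low cells, and to 14.1 to 16.7 CPM in DMSO high against 0.502 to 1.52 CPM in DMSO low cells. The part of any of these in the MEIS3 and PBX3 values was not tested.

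**Figure D3:**
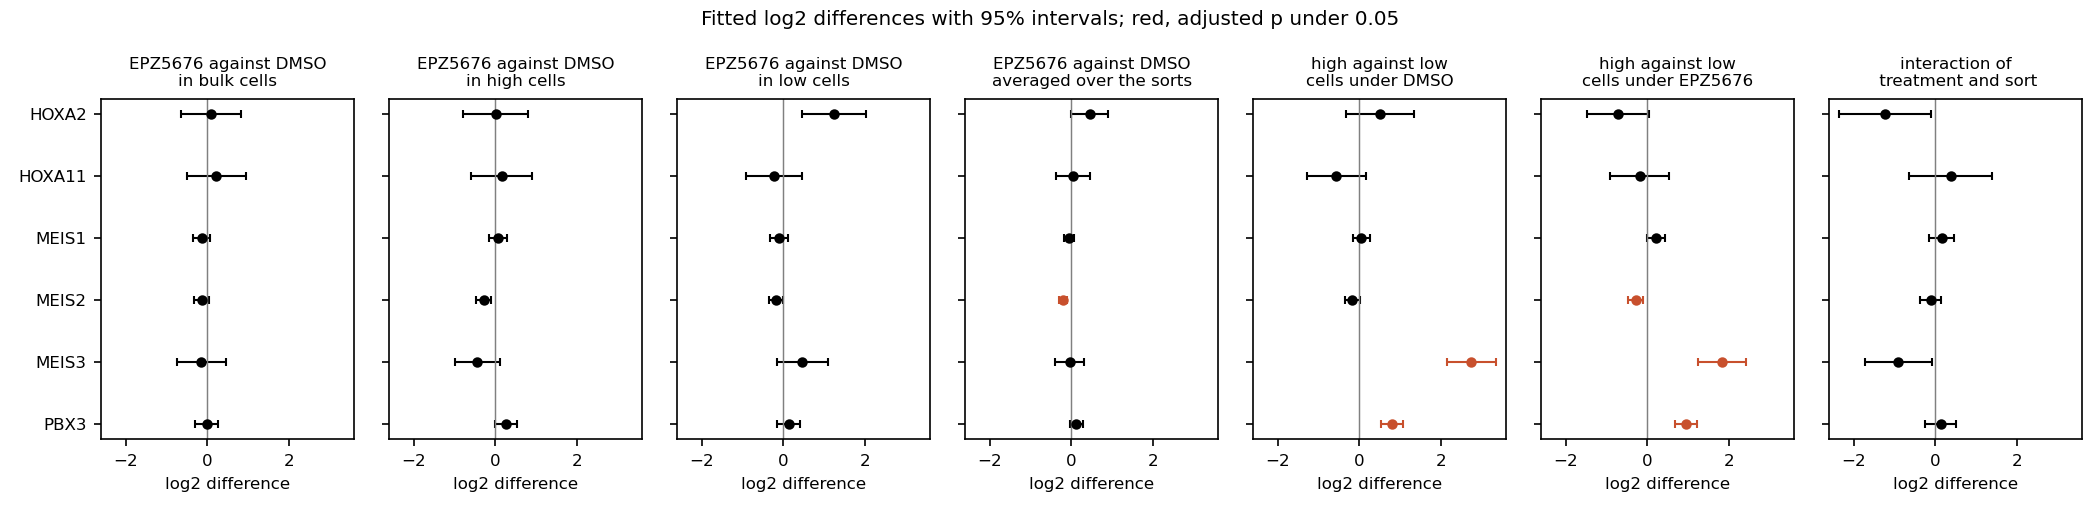
Log2 difference with its 95% interval (horizontal axis) for the 6 genes that passed the filter, in the 7 comparisons, red where the adjusted p was under 0.05. MEIS3 and PBX3 are called in high against low cells under DMSO and EPZ5676, and MEIS2 with EPZ5676 averaged over the sorts and in high against low cells under EPZ5676.

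Over all 6 groups at once, MEIS2 (adjusted p = 0.000461), MEIS3 (adjusted p = 2.5e-06) and PBX3 (adjusted p = 5.72e-07) differed somewhere, as did 58.6% of tested genes. HOXA2 (adjusted p = 0.0513), MEIS1 (0.206) and HOXA11 (0.694) missed the threshold, HOXA2 closely: in 9 of 29 alternatives it passed, at the lowest with adjusted p = 0.0286.

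Likeness was measured as Pearson's r of log2 CPM over the 18 libraries against 13372 genes, which share libraries and depth. The genes most like MEIS3 were DNM1, DYNC2I1 and TNFRSF1B, each with r = 0.992, but 2008 genes had r over 0.9. For PBX3 they were CHPF2 (r = 0.976), FMNL1 (0.973) and ADAMTS1 (0.970), among 977 genes over 0.9. For MEIS2 they were SPTLC1 (0.90), MAPKAPK3 (0.871) and DNAJC21 (0.849), and for MEIS1 they were DAPK1 (0.829), ARHGEF11 (0.820) and AEBP1 (0.805). The nearest were TXNDC11 (0.776), RNF227 (0.766) and GPLD1 (0.757) for HOXA2 and CLP1 (0.743), ZNF248 (0.738) and ACSF3 (0.726) for HOXA11, genes near 1 CPM whose values carry much counting error.

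The rest of the HOX family gives the setting. Of all 39 HOX genes, the 4 above included, 13 were barely expressed and 29 were tested. Averaged over the sorts, 3 were higher and 1 lower with EPZ5676, which is 13.8% of those tested beside 8.26% of all tested genes. The median log2 difference of the 29 was 0.09 against -0.00 for all tested genes. HOXD1 averaged 3.89 ± 0.26 CPM in EPZ5676 high and 2.57 ± 0.216 CPM in DMSO high cells, and 5.38 ± 0.736 CPM in EPZ5676 low and 3.70 ± 0.265 CPM in DMSO low cells (SD, n = 3 each). Its averaged difference was 0.60 ± 0.11 (adjusted p = 0.00103). HOXB9 (0.27 ± 0.08, adjusted p = 0.0357) and HOXB13 (0.33 ± 0.10, adjusted p = 0.0341) were also higher, and HOXB2 was lower (-0.20 ± 0.04, adjusted p = 0.0037). Of the 18 libraries left out in turn, 12 cost HOXB9 its call, namely those other than the DMSO bulk libraries and replicate 2 of DMSO high, DMSO low and EPZ5676 high (adjusted p up to 0.0788). For HOXB13 there were 9, replicates 1 and 2 of DMSO high, 2 and 3 of DMSO low, 1 and 3 of EPZ5676 bulk and EPZ5676 high, and 1 of EPZ5676 low (adjusted p up to 0.0815). HOXD1 and HOXB2 kept theirs each time, but all 4 lost it without the 6 libraries with many reads on no feature (adjusted p between 0.157 and 0.516), with log2 differences of 0.54 for HOXD1, 0.24 for HOXB9, 0.33 for HOXB13 and -0.23 for HOXB2. In high cells 1 HOX gene was called, which is 3.45% of those tested beside 3% of all tested genes. It was HOXB13 at 0.73 ± 0.18 (adjusted p = 0.027), and 4 of the single libraries cost it its call, DMSO high replicates 1 and 2 and EPZ5676 high replicates 1 and 3 (adjusted p up to 0.126). HOXB13 lost that call without the 6 libraries with many reads on no feature too, at 0.96. In bulk and in low cells none was called by edgeR, with 3 and 5 of the 29 at an unadjusted p under 0.05. Among the 7 other HOXA genes 6 were tested and none was called with EPZ5676 in any of these comparisons (at an unadjusted p under 0.05 only HOXA3, in bulk cells and on average), nor were the 3 tested of 6 non-coding genes of the HOXA cluster (HOXA11-AS in low cells).

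Between high and low cells under DMSO, 5 HOX genes were higher, 7 lower and 17 neither, with a median of 0.00. HOXB2 (0.73 ± 0.07), HOXB3 (0.80 ± 0.12) and HOXC6 (0.89 ± 0.16) were higher, as were HOXA13 (0.46 ± 0.19) and HOXD8 (0.26 ± 0.10). HOXA13 lost its call with 7 and HOXD8 with 3 of the 18 libraries left out, among them DMSO low replicates 2 and 3 and DMSO high replicate 3 for both (adjusted p up to 0.219 and 0.174). HOXB9 (-1.59 ± 0.14), HOXB13 (-1.05 ± 0.17), HOXD13 (-0.88 ± 0.10) and HOXA3 (-0.49 ± 0.13) were among the lower. HOXB6 and HOXD1, also lower, lost the call with 12 and 2 of the 18 libraries left out (edgeR, adjusted p up to 0.224 and 0.082). Both lost it without the 6 libraries with many reads on no feature too, at -0.51 and -0.54. Under EPZ5676 3 were higher, HOXB2 (0.66 ± 0.07), HOXB3 (0.52 ± 0.12) and HOXC6 (0.79 ± 0.16), and 6 lower. Without the 6 libraries with many reads on no feature HOXB3 lost that call (0.49, adjusted p = 0.0924), and so did 4 of the 6 lower genes, HOXA3 (-0.52, 0.117), HOXB8 (-0.66, 0.149), HOXB13 (-0.29, 0.388) and HOXD1 (-0.56, 0.23), as HOXA13 (adjusted p = 0.171) and HOXD8 (adjusted p = 0.289) did theirs under DMSO. The antisense RNA HOXA-AS2 was lower in high cells under DMSO (-0.64 ± 0.26, adjusted p = 0.0373), a call lost without DMSO low replicate 1 or 2 or DMSO high replicate 2 or 3 (adjusted p up to 0.265). HOXA-AS2 lost that call without the 6 libraries too, at -0.66. The share called was 41.4% under DMSO and 31% under EPZ5676, against 56.3% and 48.9% of all tested genes.

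**Figure D4:**
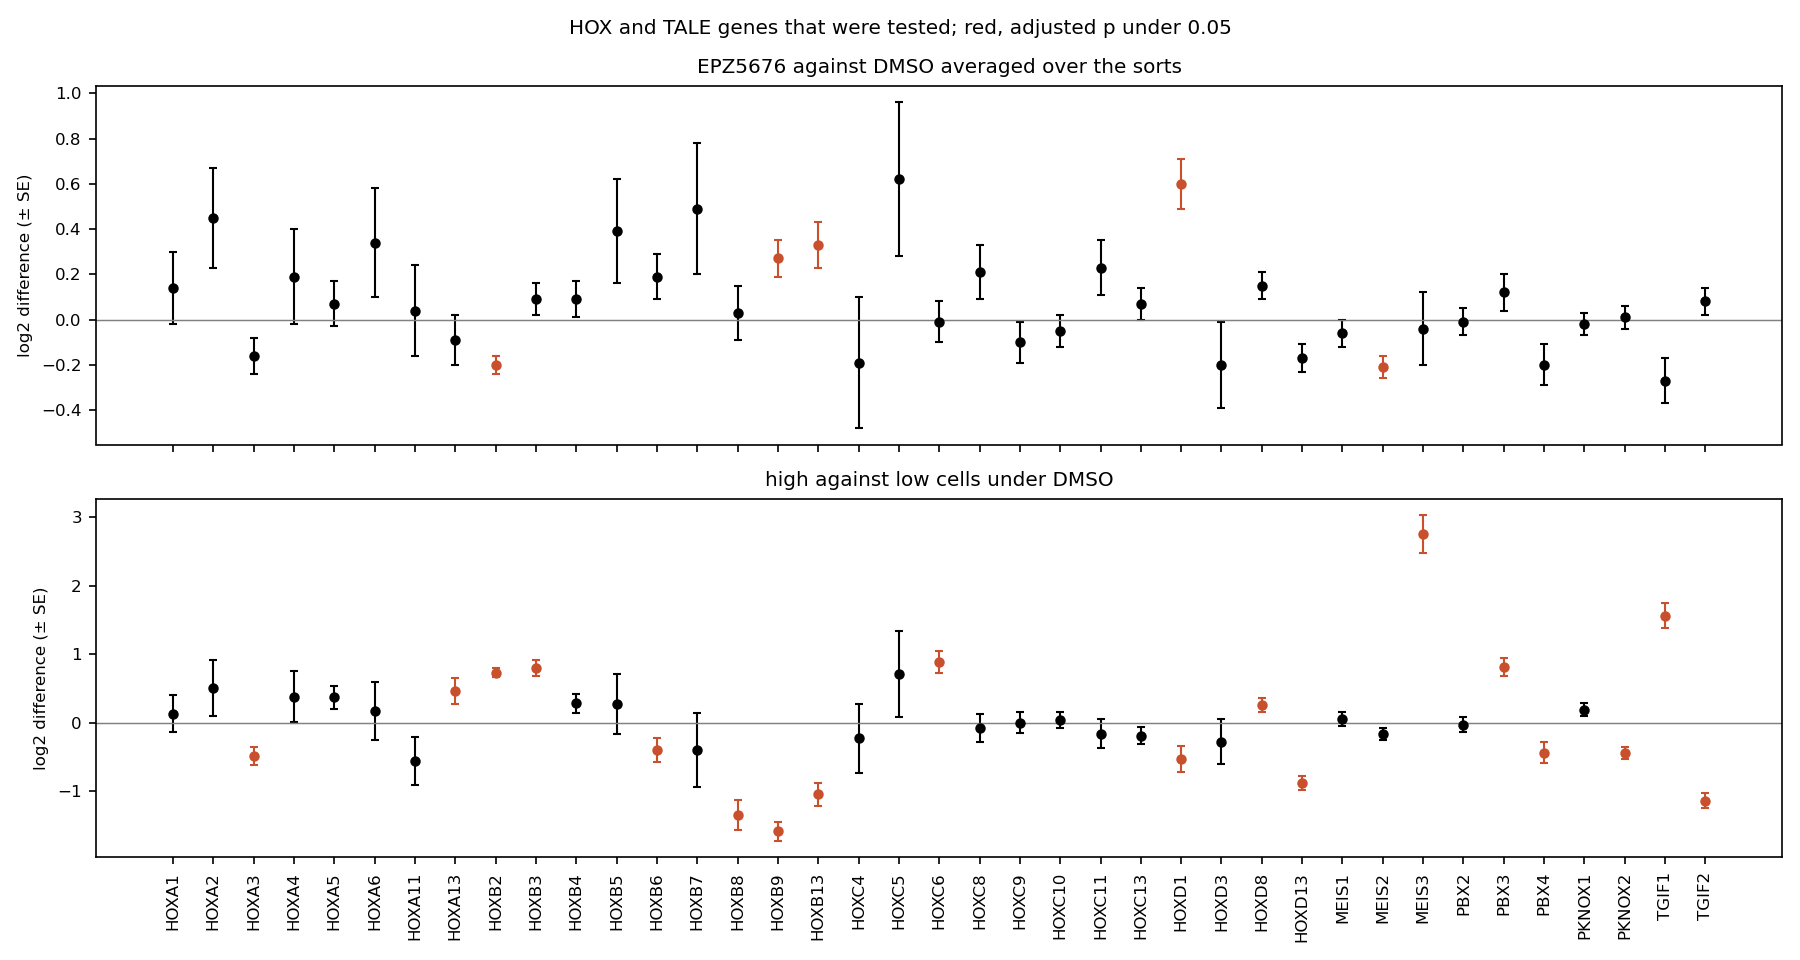
Log2 difference with SE (vertical axis) for the 29 HOX and 10 TALE genes tested, for EPZ5676 against DMSO averaged over the sorts (upper) and for high against low cells under DMSO (lower), red where the adjusted p was under 0.05. With EPZ5676 the called genes lie between -0.21 and 0.60, and between high and low cells MEIS3 reaches 2.75.

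Of the TALE genes of the lists, 10 were tested. With EPZ5676 only MEIS2 was called among these 10 in the averaged comparison, which is 10% beside 8.26% of all tested genes. None was called in bulk, high or low cells alone, where 1 each had an unadjusted p under 0.05 in edgeR (TGIF1 in bulk, MEIS2 in high and in low cells). Between high and low cells under DMSO 3 were higher, MEIS3, PBX3 and the repressor TGIF1, and 3 lower, which is 60% of those tested beside 56.3% of all tested genes. TGIF1 averaged 42.1 ± 3.06 CPM in high and 14.3 ± 1.60 CPM in low cells (SD, n = 3 each; 1.56 ± 0.18, adjusted p = 1.74e-06). TGIF2 averaged 24.4 ± 3.32 CPM in high and 53.9 ± 3.70 CPM in low cells (-1.14 ± 0.11, adjusted p = 2.4e-08). PKNOX2 (-0.44 ± 0.09) and PBX4 (-0.44 ± 0.15) were lower too. PBX4 lost its call without DMSO high replicate 1 (-0.34, adjusted p = 0.0937) or DMSO low replicate 3 (-0.34, adjusted p = 0.0939).

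Of 10 other genes known to depend on DOT1L in leukaemia, 8 were tested, and FLT3 and LAMP5, with 5 and 8 counts, were not. Both were barely expressed, as was SKIDA1, which was tested. Averaged over the sorts 1 was higher and 2 lower with EPZ5676, where 8.26% of all tested genes were called, with a median of -0.08. MYB, a factor of blood progenitors and pigment cells, was higher (0.58 ± 0.14, adjusted p = 0.0134). IGF2BP2, an RNA-binding protein (-0.19 ± 0.04, adjusted p = 0.00731), and JMJD1C, a chromatin protein of the demethylase family (-0.24 ± 0.06, adjusted p = 0.00989), were lower. All 3 lost the call without the 6 libraries with many reads on no feature, MYB at 0.80 (adjusted p = 0.0524), JMJD1C at -0.19 and IGF2BP2 at -0.18. In low cells IGF2BP2 was lower at -0.38 ± 0.07 (adjusted p = 0.0123), lost without DMSO low replicate 2 or any EPZ5676 low library (adjusted p up to 0.0951). That call was lost without the 6 libraries with many reads on no feature too, at -0.36. Between high and low cells under DMSO, where 56.3% of all tested genes were called, 3 were higher and 4 lower, such as MEF2C (1.65 ± 0.29) and JMJD1C (0.76 ± 0.10) above and MYB (-1.92 ± 0.27) and IGF2BP2 (-0.44 ± 0.08) below.

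DOT1L RNA itself averaged 183.5 ± 3.47 CPM in EPZ5676 high and 208.0 ± 11 CPM in DMSO high cells, and 117.5 ± 3.39 CPM in EPZ5676 low and 125.4 ± 1.15 CPM in DMSO low cells (SD, n = 3 each). It was lower with EPZ5676 in the averaged comparison (-0.18 ± 0.04, adjusted p = 0.00634), a call lost without the 6 libraries with many reads on no feature (-0.19, adjusted p = 0.272). EPZ5676 blocks the enzyme, so this RNA is no check of inhibition.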

How the data were processed

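Poly(A)-selected RNA of WM989 cells was sequenced in 18 libraries, paired end, with a NEBNext Ultra RNA kit, per the labels. The values are raw counts, 1 per Ensembl gene in each library, which the authors deposited. Per the submitters' processing notes, STAR, HTSeq and the build hg19 were used. Versions, the annotation and the strand setting are not given in the sources used here. The table lists 63677 genes and 5 summary lines per library, which stayed out of library sizes and tests. They include reads outside any feature (12.8% to 28.65% of a library) and ambiguous reads (6.07% to 7.71%). Of the gene IDs, 52181 were found in a current name table and 345 more in GENCODE 29. No pair of libraries was identical.

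Counts were analysed with edgeR 4.0.16 in R 4.3.3. Genes were filtered with filterByExpr (minimum count 10), which left 18121, scaled by TMM, and fitted with a robust quasi-likelihood model of 6 group means over all 18 libraries. P-values were adjusted by Benjamini-Hochberg over all tested genes, with a threshold of 0.05. SEs come from the F statistic, and log2 CPM for likeness used a prior count of 2. Alternatives were RLE factors, library size alone, no filter, a filter at a mean of 1 CPM, limma-voom (limma 3.58.1), DESeq2 1.42.0, an estimate that was not robust, only the groups compared, a replicate block, the no-feature share as covariate, and leaving out each library or the 6 with a share over 16%. Leaving out those 6 with DMSO bulk replicate 1 was chosen after seeing the data. The code was tested on simulated counts.

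The genes and lists were chosen with earlier results of these data known. All 8 genes are described, with up to 4 genes of smallest p from each other list and the 3 genes most like each tested gene. Some further called genes are named where their call was lost with libraries left out. HOX genes outside HOXA are lists by cluster. Exon overlap and length come from GENCODE 29 and promoters from RefSeq on GRCh38.p14, a later build than that of the counts. Protein sequences were not used here.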

Additional observations from a re-analysis of the deposited data

Results flagged for a closer look

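MEIS3 drew attention because every EPZ5676 library lay below every DMSO library in high cells (36.9 to 41.1 against 49.8 to 54.8 CPM) and above every DMSO library in low cells (8.34 to 12.1 against 7.53 to 8.11 CPM). The effect in high cells minus that in low cells was -0.90 ± 0.38 on the log2 scale (edgeR, adjusted p = 0.405). Without DMSO bulk replicate 1, which enters neither of these groups but shares their estimate of the spread, it was -0.91 ± 0.14 (adjusted p = 7.87e-05). That fit called 581 of all genes higher and 491 lower in the interaction, against 37 and 21 with all 18 libraries. Without the 6 libraries with many reads on no feature the MEIS3 value was -0.94 ± 0.63. Of 78 listed genes tested, 3 moved in opposite directions without overlap in this way, MEIS3, the collagen gene COL1A1 and the receptor gene KDR, beside 2.56% of all 18121 genes tested (1.23% in the directions of MEIS3).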

How the results depend on the processing

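Direction and call of MEIS3 and PBX3 in high against low cells held under all 30 alternatives, with log2 differences of 2.68 to 2.79 and 0.74 to 0.90 under DMSO and 1.69 to 1.93 and 0.86 to 0.97 under EPZ5676. The averaged MEIS2 difference ran from -0.23 to -0.18 and kept its call in 27 of 29. At about 1 CPM, HOXA2 and HOXA11 are limited by depth. No pairing of the samples by replicate number was seen (correlations of deviations from -0.34 to 0.296 over 45 pairs, 8 over 0.1, and 7 of 18 libraries correlating best with their own number). With 3 libraries in each group this check could not exclude a pairing. With the replicate block, 783 genes were higher and 653 lower with EPZ5676 on average, against 810 and 687, and no call of the 8 genes changed.

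Among the 8 genes, library size alone gave 1 lower between high and low cells under DMSO (MEIS2, -0.24, adjusted p = 0.0257). DESeq2 gave 1 lower with EPZ5676 in high cells. With only the groups compared, 2 were lower in high, 1 higher in low cells and 1 lower in the interaction. The no-feature covariate left 0 lower on average. Without the 6 libraries over 16% on no feature 0 were lower on average and 0 in high against low cells under EPZ5676. Without those and DMSO bulk replicate 1, 1 was higher in low cells and 1 lower in the interaction.

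Counts over all genes moved more, higher then lower. In bulk cells (90 and 42) they were 212 and 228 with no filter, 183 and 107 with DESeq2, 2 and 0 with only the groups compared, 41 and 9 with the covariate, and 0 and 0 without the 6 libraries (18 lower without DMSO bulk replicate 1 as well). In high cells (354 and 189) they were 709 higher with no filter, 313 lower with DESeq2, 668 and 745 with only the groups compared, and 5 and 0 without the 6. In low cells (129 and 59) they were 229 and 144 with no filter, 124 lower with DESeq2, 610 and 418 with only the groups compared, 6 and 1 without the 6, and 315 and 137 without those and DMSO bulk replicate 1. On average (810 and 687) they were 528 and 372 with the covariate, 117 and 14 without the 6, and 349 lower without those and DMSO bulk replicate 1. In the interaction (37 and 21) they were 220 and 84 with no filter, 111 and 66 with DESeq2, 21 higher when not robust, 432 and 431 with only the groups compared, 0 and 0 without the 6, and 144 and 140 without those and DMSO bulk replicate 1. In high against low cells under EPZ5676 they were 2307 and 1869 without the 6, against 4668 and 4190, and 6919 genes differed anywhere, against 10624. Some of these settings also change the samples or the genes tested. The cause of the shifts in counts was not tested.

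Leaving out each library in turn gave 34 to 371 higher and 5 to 179 lower in bulk cells, 140 to 1099 and 60 to 919 in high cells, 49 to 566 and 11 to 402 in low cells, 611 to 1401 and 467 to 1130 on average, and 7 to 581 and 6 to 491 in the interaction, each highest count being that without DMSO bulk replicate 1. Of the 8 genes, 0 to 2 were lower in high cells, 0 to 2 higher in low cells, 0 to 1 higher on average, 1 to 2 lower in high against low cells under EPZ5676, 0 to 1 lower in the interaction and 3 to 4 different anywhere. The fibroblast marker FAP, at -1.24 in bulk cells and -0.04 on average, turned to 1.29 and 0.80 without DMSO bulk replicate 1 (0.83 on average without the 6 as well). Over single libraries left out its lowest values were -1.77 and -0.48. A fit of only the groups compared does not apply to the averaged comparison.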
